A study of Rattus norvegicus with 3 samples.

Results

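The Rab genes encode the largest family of small GTPases that direct membrane traffic, and their levels were read in rat brainstem on 3 Affymetrix arrays. A gene was taken as a member if its single symbol in the array's probe annotation was Rab followed by a digit, leaving out symbols that start with Rab3gap, Rab3il, Rab11fip or Rabgap. This gave 58 of 14217 named genes, with 100 probe sets. Of the 58, 56 are Rab GTPases, while Rab3ip and Rab5if are named for proteins that bind a Rab. A gene's value was that of its brightest probe set by mean over the 3 arrays.

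The arrays were 1 labelled Hand Acu (hand acupuncture), 1 labelled TBI (traumatic brain injury) and 1 labelled Sham, all of brainstem frozen 1 h after modelling. Tissue of 5 rats was mixed before extraction, read here as 1 pool for each array, and 6 µg of total RNA was labelled. The labels used here do not say whether the acupuncture rats were also injured, where needles were placed, how the injury was made, or the strain, sex and age. With 1 array per group no difference has an error of its own and no test was run. In such bulk tissue, fewer cells of a type and less RNA per cell cannot be told apart.

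A Rab protein is a switch: bound to GTP it sits on a membrane and recruits effectors, and bound to GDP it is pulled into the cytosol. Exchange factors (GEFs) load GTP, GTPase-activating proteins (GAPs) end the active state, and GDI proteins carry the inactive form. A prenyl lipid added to the carboxyl end anchors the protein. Each Rab marks its own compartment, and neurons use the family for transmitter release, for endosomes in axons and dendrites, and for lysosomal clearance.

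Values are log2 signals, so a difference of 1 is 2-fold. Signal near background is erratic, since TBI minus Sham had an SD of 1.76 in the dimmest decile of probe sets and of 0.14 in the brightest. Genes are therefore described above a floor of 7.44 in mean log2 signal, the median of all non-control probe sets. Array medians were 7.44 for Hand Acu, 7.44 for TBI and 7.45 for Sham. The beta-actin probe sets, whose 3' over 5' ratio grows as RNA degrades, gave ratios of 6.69 (Hand Acu), 6.37 (TBI) and 5.58 (Sham), and those of Gapdh 1.280, 1.203 and 1.250. Of 10 brainstem marker genes on the array, 5 lay above the floor, among them Chat, Slc6a4 and Calca, while Slc6a5, the glycine transporter of brainstem inhibitory neurons, was near background at 2.11, 3.02 and 3.14 on the Hand Acu, TBI and Sham arrays. Phox2a, Dbh, Slc6a2 and Hoxb4 were also below the floor. Of 16 cerebellum markers 14 lay above the floor, with Gabra6 at 11.69, 11.76 and 12.38 in the same order of arrays, while Zic1 and Barhl2 lay below it.

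The Rab family was nearly level across the 3 arrays. Above the floor lay 47 of 58 Rab genes (81.0%), beside 65.0% of all named genes. Over these 47 the median log2 difference was 0.03 for TBI minus Sham, 0.01 for Hand Acu minus TBI and 0.02 for Hand Acu minus Sham, where the 9241 genes above the floor had 0.0043, -0.0024 and 0.0037. The SD over Rab genes was 0.17, 0.18 and 0.17 for the same 3 comparisons, and 0.20, 0.19 and 0.21 over all genes. The median range over the 3 arrays was 0.165 for Rab genes and 0.176 for all genes above the floor. By this measure the family was little flatter than the array as a whole. For 16 of the 47 Rab genes all 3 arrays lay within 0.1 of each other, a count not made for all genes. The flattest was Rab10, which serves delivery of vesicles to the cell surface, at 12.07 (Hand Acu), 12.06 (TBI) and 12.06 (Sham). Much of the family lies at high signal, where differences are smaller. Among genes above a higher floor of 9.25, the median size of TBI minus Sham was 0.08 for 32 Rab genes and 0.09 for 5255 genes. For Hand Acu minus TBI it was 0.061 and 0.074. For Hand Acu minus Sham it was 0.090 and 0.085, so there the Rab genes were not the flatter set.

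**Figure D1:**
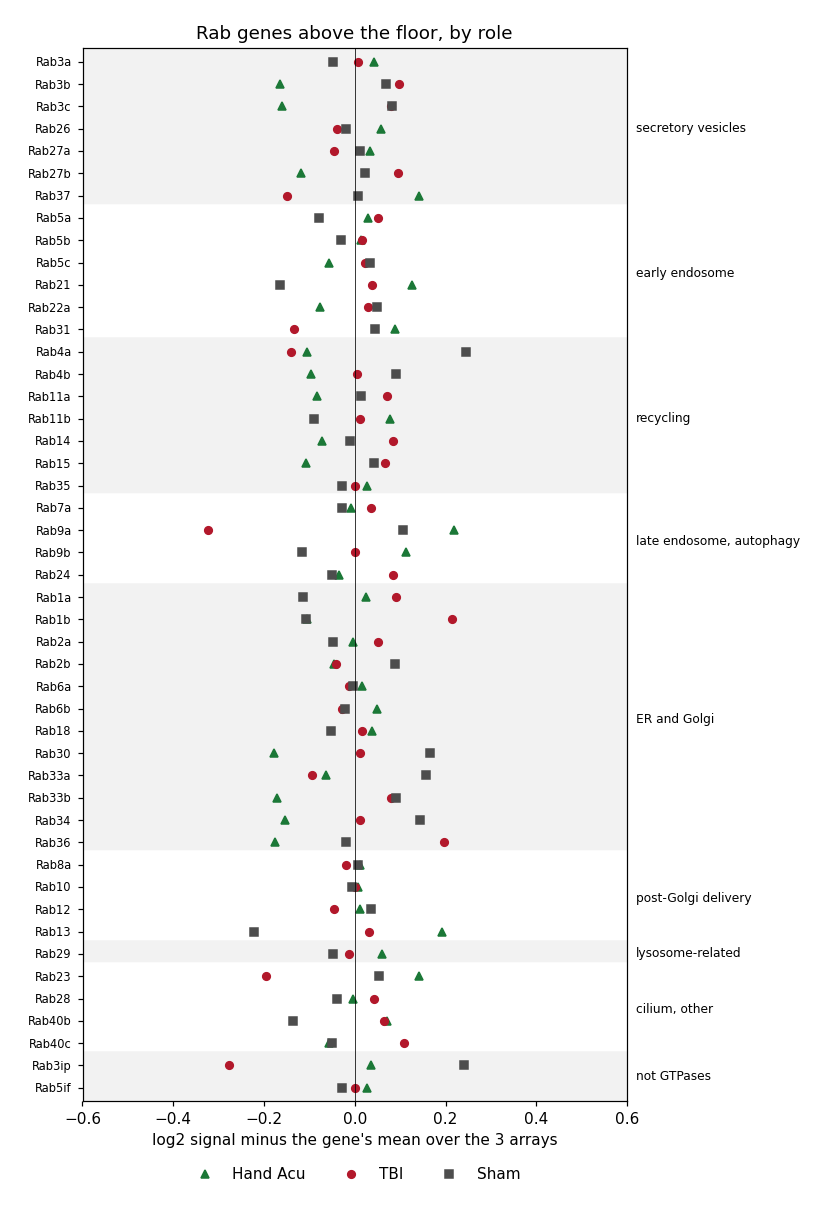
Each row is one of the 47 Rab genes above the floor, grouped by role, and the horizontal axis gives its log2 signal on each array minus its mean over the 3 arrays. Most points lie close to 0, and Rab9a, Rab3ip and Rab4a have an array that stands farthest from the others.

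A difference of 1.3-fold (0.38 on the log2 scale) is used below to name genes. For TBI minus Sham, 0 Rab genes were at least 1.3-fold higher, beside 3.53% of all genes above the floor. At least 1.3-fold lower were 3 Rab genes (Rab3ip, Rab9a and Rab4a), beside 3.29% of all genes. For Hand Acu minus TBI, 1 Rab gene was higher (Rab9a), beside 2.53%, and 0 were lower, beside 2.67%. For Hand Acu minus Sham, 1 was higher (Rab13), beside 3.73%, and 0 were lower, beside 3.93%. Out of 47 genes, shares of this size amount to 1 or 2 genes in each direction, so the counts were near those of the array as a whole.

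With a looser threshold of 1.2-fold the picture was the same. For TBI minus Sham 1 Rab gene was higher and 3 were lower, beside 7.68% and 8.15% of all genes. For Hand Acu minus TBI 4 were higher and 3 lower, beside 6.38% and 6.49%. For Hand Acu minus Sham 2 were higher and 4 lower, beside 8.16% and 8.39%. No Rab gene above the floor was 1.5-fold apart in any comparison. Of all genes, 0.866% were at least 1.5-fold higher and 0.682% lower for TBI minus Sham, 0.617% and 0.595% for Hand Acu minus TBI, and 0.996% and 0.898% for Hand Acu minus Sham. The comparisons share arrays, so a deviation of 1 array enters 2 of them.

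**Figure D2:**
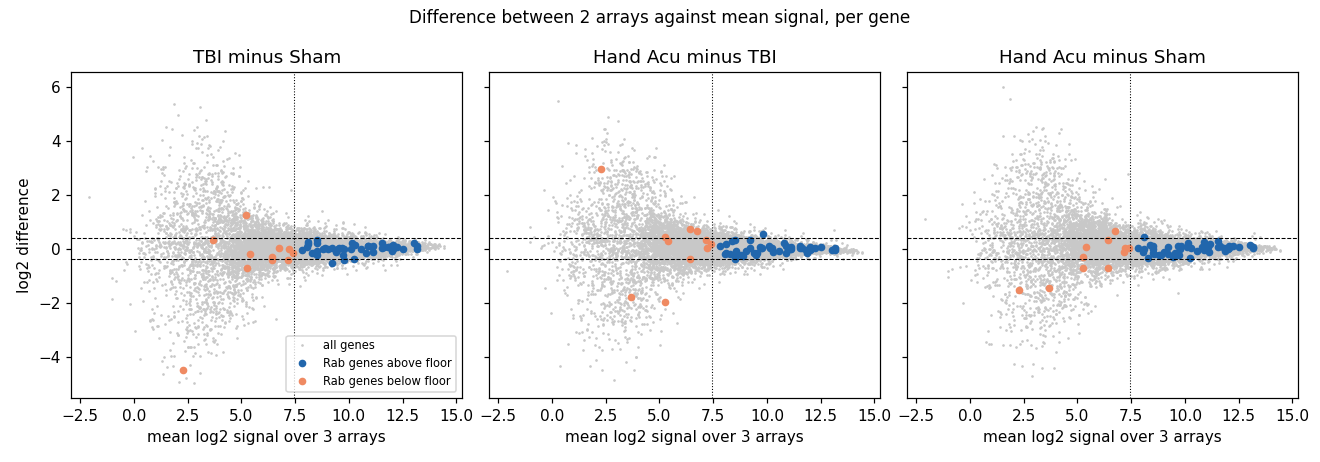
Each panel plots the log2 difference of 2 arrays against the mean log2 signal over the 3 arrays, with grey for all named genes, blue for Rab genes above the floor (dotted line) and orange for those below it. Dashed lines mark 1.3-fold, and Rab genes spread widely only at low signal, as the grey cloud does.

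Rab9a carries mannose 6-phosphate receptors from late endosomes back to the trans-Golgi network. Its log2 signal was 10.01 on the Hand Acu array and 9.47 on the TBI array, against 9.90 on the Sham array. The TBI array was thus the low one, with the other two close together. TBI minus Sham was -0.43 (1.35-fold lower on the TBI array), and Hand Acu minus TBI was 0.54 (1.46-fold higher on the Hand Acu array), the largest difference of any Rab gene above the floor. Its close relative Rab9b had 11.02, 10.91 and 10.79 on the Hand Acu, TBI and Sham arrays. For Rab9b the TBI array lay between the other two, and TBI minus Sham was 0.12. Both genes lie on chromosome X and each had 1 probe set, so neither has a second reading.

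Rab4a drives fast recycling of receptors from early endosomes to the surface. It read 10.12 on the Hand Acu array and 10.09 on the TBI array, against 10.47 on the Sham array. Here the Sham array was the high one and the other two hardly differed. TBI minus Sham was -0.38 (1.31-fold lower) and Hand Acu minus Sham was -0.35 (1.27-fold lower). The TBI difference sat at the threshold: it was -0.377 with quantile normalization and -0.369 with an offset of 50 before the log, both just short of the 0.379 that the threshold asks for. Rab4b, its paralog, had 8.44 on the Hand Acu array and 8.55 on the TBI array, against 8.63 on the Sham array, so the Sham array was again the highest, by less, while Hand Acu and TBI changed places.

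Rab13 works at epithelial and endothelial tight junctions and in delivery from the Golgi to the surface. Its signal was 8.29 on the Hand Acu array and 8.13 on the TBI array, against 7.87 on the Sham array. Hand Acu minus Sham was 0.41 (1.33-fold higher) and TBI minus Sham 0.25. With an offset of 50 the first of these was 0.35, below the threshold. It was read by 1 probe set.

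The sequences before the annotated starts of these 3 genes and of the 2 paralogs are shown because they are the Rab GTPases that passed the threshold and the near copies that did not. They come from RefSeq on the assembly GRCr8 and give the 250 bases upstream of the start on the gene's strand, 5′ to 3′. The Rab9a stretch is chrX:31609839-31610088 (plus strand), that of Rab9b chrX:105023873-105024122 (minus strand) and that of Rab4a chr19:68692831-68693080 (plus strand). Those of Rab4b and Rab13 are chr1:91600338-91600587 (minus strand) and chr2:177972720-177972969 (plus strand). Capitals mark the GC box (GGGCGG) and the CCAAT box (CCAAT), each on either strand.
Rab9a: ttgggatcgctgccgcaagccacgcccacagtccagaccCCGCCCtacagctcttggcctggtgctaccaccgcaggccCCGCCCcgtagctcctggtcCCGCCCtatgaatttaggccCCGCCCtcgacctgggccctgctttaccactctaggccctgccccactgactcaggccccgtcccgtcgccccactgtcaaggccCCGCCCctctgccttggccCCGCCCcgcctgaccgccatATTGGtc
Rab9b: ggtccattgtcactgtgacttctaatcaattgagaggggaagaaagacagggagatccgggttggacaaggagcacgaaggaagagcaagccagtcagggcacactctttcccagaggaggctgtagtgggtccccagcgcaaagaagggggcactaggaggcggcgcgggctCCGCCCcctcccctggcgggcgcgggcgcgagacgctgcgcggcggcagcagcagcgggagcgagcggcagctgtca
Rab4a: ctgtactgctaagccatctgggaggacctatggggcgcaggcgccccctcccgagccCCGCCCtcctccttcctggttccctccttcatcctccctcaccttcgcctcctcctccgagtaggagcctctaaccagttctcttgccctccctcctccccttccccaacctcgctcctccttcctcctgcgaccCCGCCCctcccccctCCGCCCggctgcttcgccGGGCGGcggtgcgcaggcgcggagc
Rab4b: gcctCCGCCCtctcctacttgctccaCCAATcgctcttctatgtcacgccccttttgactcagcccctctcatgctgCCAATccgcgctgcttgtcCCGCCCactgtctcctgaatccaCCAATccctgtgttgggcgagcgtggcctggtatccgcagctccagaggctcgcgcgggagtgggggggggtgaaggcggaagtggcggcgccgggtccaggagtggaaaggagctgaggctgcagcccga
Rab13: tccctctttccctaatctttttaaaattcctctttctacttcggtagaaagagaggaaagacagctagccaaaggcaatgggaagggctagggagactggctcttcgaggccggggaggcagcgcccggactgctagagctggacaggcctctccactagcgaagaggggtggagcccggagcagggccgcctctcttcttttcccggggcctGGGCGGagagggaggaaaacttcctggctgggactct
The Rab9a stretch held 6 GC boxes and 1 CCAAT box, and that of Rab9b 1 GC box and no CCAAT box. Rab4a had 4 GC boxes and no CCAAT box, whereas Rab4b had 2 and 3. Rab13 had 1 GC box and no CCAAT box. All 5 are rich in G and C, at 58.4% for Rab13 and 65.2% to 70.0% for the other 4.

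The same boxes were then counted across the family. The RefSeq table held 48 promoters of 47 Rab genes, each from 250 bases before to 50 after the start. Promoters were looked up for all 58 members at any signal level. These 47 genes therefore need not be the 47 above the floor. A GC box was found in 37 of the 48 (77.1%), beside 62.8% of 8640 promoters of genes above the floor and 33.1% of all 33469 promoters. A CCAAT box was in 37.5%, beside 37.3% and 37.5%. The TATA box (TATAAA, either strand) was in 0 of 48, beside 6.56% and 14.2%. The E-box CACGTG was in 8.33%, beside 9.40% and 6.42%, and the cyclic AMP element TGACGTCA in 2.08%, beside 3.15% and 1.83%. The CCAAT, E-box and cyclic AMP shares were thus near those of genes above the floor. A match is a string of letters in this window and no evidence of binding.

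Among the Rabs of secretory vesicles, 7 of 8 lay above the floor and none was 1.3-fold apart in any comparison. Their median difference was -0.003 for TBI minus Sham, 0.03 for Hand Acu minus TBI and 0.02 for Hand Acu minus Sham. Rab3a, the main Rab of synaptic vesicles, had 12.29 on the Hand Acu array and 12.25 on the TBI array, against 12.20 on the Sham array. Its second probe set had the Hand Acu array lowest instead, with 8.87 and 9.10, against 9.34. There Hand Acu minus Sham was -0.47, past 1.3-fold, unlike the value used. The paralogs Rab3b and Rab3c, each with 1 probe set, were also lowest on the Hand Acu array. Rab3b had 8.71 on the Hand Acu array and 8.97 on the TBI array, against 8.94 on the Sham array. Rab3c had 8.65 on the Hand Acu array and 8.89 on both others. For Rab3c this made Hand Acu minus TBI and Hand Acu minus Sham each -0.24, among the 5 lowest Rab genes in both.

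Rab27a and Rab27b, which tether secretory granules and lysosome-related organelles, lay just above the floor. Rab27a read 7.86 on the Hand Acu array and 7.78 on the TBI array, against 7.84 on the Sham array. Rab27b read 7.94 and 8.15 on these arrays, against 8.08 on the Sham array. The pair did not share an order. Rab37, found on secretory granules, had 8.52 on the Hand Acu array and 8.22 on the TBI array, against 8.38 on the Sham array, and its Hand Acu minus TBI of 0.29 was among the 5 highest. Rab26 stayed within 0.1 over the arrays.

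The early endosome group had 6 of 8 members above the floor, 0 of them 1.3-fold apart. Rab5a, Rab5b and Rab5c, which drive fusion of early endosomes, were nearly flat. Rab5a had 12.09 on the Hand Acu array and 12.11 on the TBI array, against 11.98 on the Sham array. Rab5b had 11.07 on both, against 11.03 on the Sham array, though its 3 probe sets above the floor ran from 0.04 to 0.64 for Hand Acu minus Sham. Rab5c had 10.52 and 10.60, against 10.61. Rab21, known for endocytosis of integrins, had the largest Hand Acu minus Sham of the group at 0.29, with 11.67 on the Hand Acu array and 11.58 on the TBI array, against 11.38 on the Sham array. Rab31, which serves traffic between the trans-Golgi network and endosomes, was lowest on the TBI array, with 10.90 on the Hand Acu array and 10.68 on the TBI array, against 10.85 on the Sham array. Its second probe set had the TBI array highest instead, with 8.03 and 8.12, against 7.92. Rab22a, of early and recycling endosomes, spanned 0.12 over the arrays.

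Of the recycling group 7 of 8 lay above the floor, with Rab4a (above) the 1 member past the threshold. Rab11a, the Rab of the recycling endosome, had 11.76 on the Hand Acu array and 11.92 on the TBI array, against 11.86 on the Sham array. Rab11b had 11.22 and 11.15, against 11.05, so the 2 paralogs differed in which array was highest. The second probe set of Rab11b had the Sham array highest instead, with 7.78 and 7.85, against 7.97. Hand Acu minus TBI had a median of -0.10 in this group, with 4 of 7 genes lower, beside 50.7% of all genes. Rab14, which links Golgi and endosomes, differed by -0.16 in that comparison and Rab15, known for recycling in neural cells, by -0.17. Other probe sets did not bear this out: 2 of the 4 of Rab14 above the floor went the other way, by up to 0.07, as did the second of Rab15, at 0.05. Rab35, which returns cargo to the plasma membrane, spanned 0.05.

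In the late endosome and autophagy group 4 of 5 lay above the floor. Rab7a, which takes late endosomes to fusion with lysosomes, had 11.82 on the Hand Acu array and 11.86 on the TBI array, against 11.80 on the Sham array. Rab24, linked to autophagy, was within 0.14 over the arrays. All 4 were higher on the Hand Acu than on the Sham array, by 0.02 to 0.23, none past the threshold. In that comparison 28 of the 47 Rab genes (59.6%) and 51.0% of all genes above the floor were higher.

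The ER and Golgi Rabs were the largest group, with 12 of 15 above the floor and none 1.3-fold apart. Rab1a and Rab1b act between the ER and the Golgi. Rab1a had 13.06 on the Hand Acu array and 13.12 on the TBI array, against 12.92 on the Sham array. Rab1b had 8.42, 8.75 and 8.42 on the Hand Acu, TBI and Sham arrays, and its TBI minus Sham of 0.32 was the highest of any Rab gene above the floor. Its probe sets did not move as one: TBI minus Sham ran from -0.21 to 0.67 over its 4 probe sets above the floor. The probe set used carries the suffix that Affymetrix gives where probes may also bind other transcripts, and 3 further probe sets that name both Rab1a and Rab1b were left out.

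Rab2a and Rab6a, Golgi Rabs, were close to level. Rab2a had 13.14 on the Hand Acu array and 13.20 on the TBI array, against 13.10 on the Sham array. Its paralog Rab2b had 11.09 and 11.10, against 11.23. Rab6a had 13.20 and 13.17, against 13.18, and Rab6b, a form enriched in neurons, had 12.55 and 12.47, against 12.48. Over the arrays Rab2b spanned 0.13 and the other 3 spanned 0.10 or less. Rab18, known from the ER and lipid droplets, spanned 0.09.

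Some Golgi Rabs were lowest on the Hand Acu array, though the group split into 6 higher and 6 lower for Hand Acu minus Sham. The Hand Acu array was the lowest for 15 of the 47 Rab genes (31.9%), beside 32.0% of all genes above the floor. It was the highest for 20 (42.6%), beside 32.3%. Rab30 had 8.11 on the Hand Acu array and 8.30 on the TBI array, against 8.45 on the Sham array (Hand Acu minus Sham -0.34). Rab34, which serves lysosome positioning and cilium formation, had 9.27 and 9.43, against 9.57 (-0.30). Rab33b, a partner of the autophagy protein Atg16l1, had 9.34 and 9.59, against 9.61 (-0.26). These were 3 of the 5 lowest Rab genes of that comparison. Rab36 was low on the Hand Acu array and high on the TBI array, with 8.34 and 8.71, against 8.50 on the Sham array, and its Hand Acu minus TBI of -0.37 lay just short of the threshold. Rab33a had 9.66 and 9.63, against 9.88 on the Sham array, so its Sham array was the high one, whereas for its paralog Rab33b the Hand Acu array was the low one.

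Besides Rab13, the post-Golgi delivery group held Rab8a, Rab10 and Rab12 above the floor. All 3 are substrates of the kinase LRRK2 and spanned 0.01 to 0.08 over the arrays. Rab8a had 9.77 on the Hand Acu array and 9.74 on the TBI array, against 9.77 on the Sham array. Rab29, which recruits LRRK2 to membranes, had 9.75 and 9.67, against 9.64. The cilium group and others had 4 of 4 above the floor. Rab23, a restraint on Hedgehog signalling, was low on the TBI array, with 8.65 on the Hand Acu array and 8.31 on the TBI array, against 8.56 on the Sham array. Rab40b, which joins a ubiquitin ligase, had 10.20 on the Hand Acu array and 10.19 on the TBI array, against 9.99 on the Sham array. Its Hand Acu minus Sham of 0.21 was among the 5 highest, and its second probe set had 0.56. Rab28, linked to cilia, and Rab40c differed by 0.08 and 0.16 for TBI minus Sham.

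Rab3ip encodes Rabin8, a GEF that activates Rab8, and is no GTPase itself. It had 9.24 on the Hand Acu array and 8.93 on the TBI array, against 9.45 on the Sham array. TBI minus Sham was -0.52 (1.43-fold lower on the TBI array), the lowest of the members above the floor, and Hand Acu minus TBI was 0.31. Its second probe set also put the TBI array lowest, with 8.05 on the Hand Acu array and 7.81 on the TBI array, against 8.03 on the Sham array, a TBI minus Sham of -0.22. The mean of the gene's probe sets gave -0.37, short of the threshold. Its substrate Rab8a differed by -0.03 between the same arrays, and Rab5if by 0.03.

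**Figure D3:**
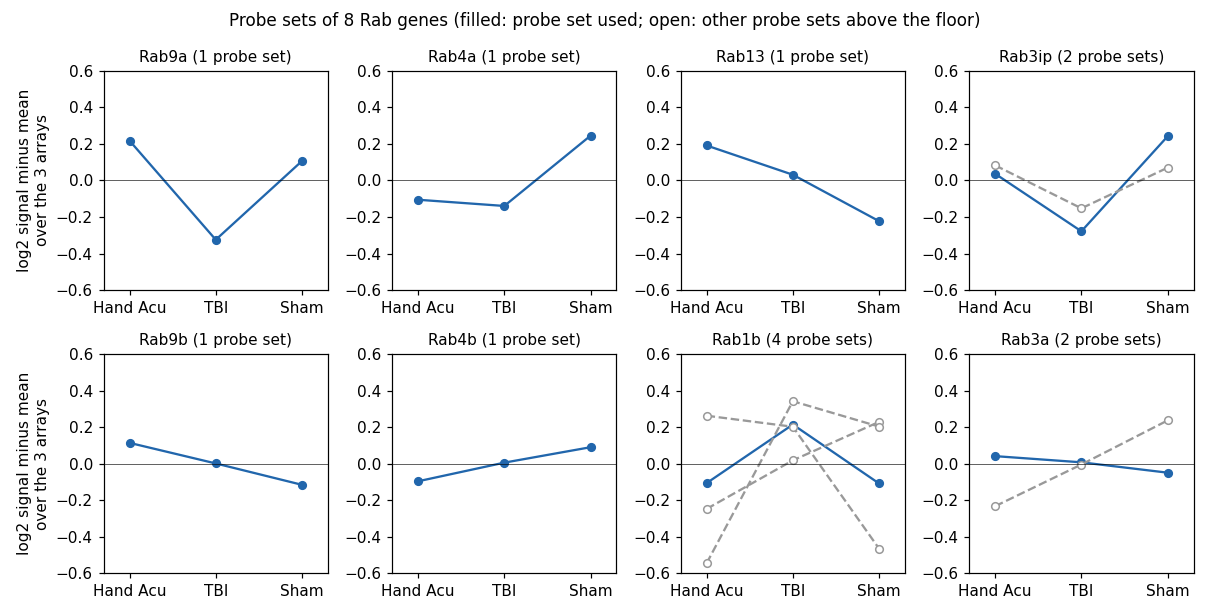
Log2 signal on the Hand Acu, TBI and Sham arrays minus the probe set's mean over the 3 arrays, for 8 Rab genes, with filled points for the probe set used and open points for others above the floor. The 2 probe sets of Rab3ip share a low TBI array, whereas those of Rab1b and Rab3a run differently.

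Further probe sets gave a reading that did not enter the choice of value. A second probe set above the floor was present for 20 of the 47 genes. Of their 25 further probe sets, 16 (64.0%) had the direction of the probe set used for TBI minus Sham, 13 (52.0%) for Hand Acu minus TBI and 13 (52.0%) for Hand Acu minus Sham. All probe sets of a gene went one way in 11, 10 and 9 of the 20 genes for these comparisons. Rab3a shows the limit: its second probe set had 8.87 on the Hand Acu array and 9.10 on the TBI array, against 9.34 on the Sham array, a Hand Acu minus Sham of -0.47, where the brighter probe set gave 0.09. For Rab30 both probe sets put the Hand Acu array lowest, at -0.26 and -0.34 for Hand Acu minus Sham.

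The 11 Rab genes below the floor were Rab3d, Rab7b, Rab8b, Rab17, Rab19, Rab20, Rab25, Rab32, Rab38, Rab39a and Rab43. Rab25 and Rab17 are known from epithelia, and Rab32 and Rab38 from pigment cells. Rab8b was nearest to the floor at 7.46 on the Hand Acu array and 7.27 on the TBI array, against 7.42 on the Sham array, and Rab27a lay just above it. Rab39a, with 2.74 on the Hand Acu array and -0.21 on the TBI array, against 4.28 on the Sham array, shows how far values stray there. Rab20 had 7.18 on the Hand Acu array and 6.54 on the TBI array, against 6.53 on the Sham array. No direction is read from these genes.

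Genes of proteins that serve the Rab cycle had small medians, with a few genes lower on the Hand Acu array. Of 110 listed GEFs, GAPs, effectors and GDI, escort or prenylation genes, 92 were on the array and 73 lay above the floor. At least 1.3-fold higher or lower were 1 and 1 for TBI minus Sham (1.37% each), beside 3.53% and 3.29% of all genes. For Hand Acu minus TBI they were 1 and 5 (1.37% and 6.85%), beside 2.53% and 2.67%. Hand Acu minus Sham had 0 and 4 (the second 5.48%), beside 3.73% and 3.93%. The medians over the 73 genes were -0.03, -0.03 and -0.05 for the 3 comparisons. None of the 32 effectors above the floor was 1.3-fold apart in any comparison.

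For TBI minus Sham, Mon1b, part of a GEF for Rab7, differed by -0.66 and Sgsm2, a GAP, by 0.40. The second probe set of Mon1b above the floor went the other way, at 0.18. On the Hand Acu array Ankrd27, a GEF for Rab21, had 8.75, against 9.18 for TBI and 9.26 for Sham. Rab21 itself was highest on the Hand Acu array, as given above. Tbc1d17, a GAP, had 7.80 on the Hand Acu array and 8.49 on the TBI array, against 8.38 on the Sham array. Rabgef1, a GEF for Rab5, differed by -0.43 for Hand Acu minus Sham, and Dennd1b, a GEF for Rab35, by -0.51 for Hand Acu minus TBI.

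All 6 GDI, escort and prenylation genes above the floor were lower on the Hand Acu array than on either other array, with medians of -0.05 against TBI and -0.09 against Sham, where 50.7% and 49.0% of all genes were lower. Apart from Ggps1 and Chm, the differences from TBI were only -0.07 to -0.03. Ggps1, which makes the geranylgeranyl lipid added to Rabs, had 8.01 on the Hand Acu array and 8.86 on the TBI array, against 8.67 on the Sham array. Its second probe set above the floor had 8.47 and 8.30, against 8.39, so it put the Hand Acu array highest. Chm, an escort protein that presents Rabs for prenylation, differed by -0.38 for Hand Acu minus TBI.

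**Figure D4:**
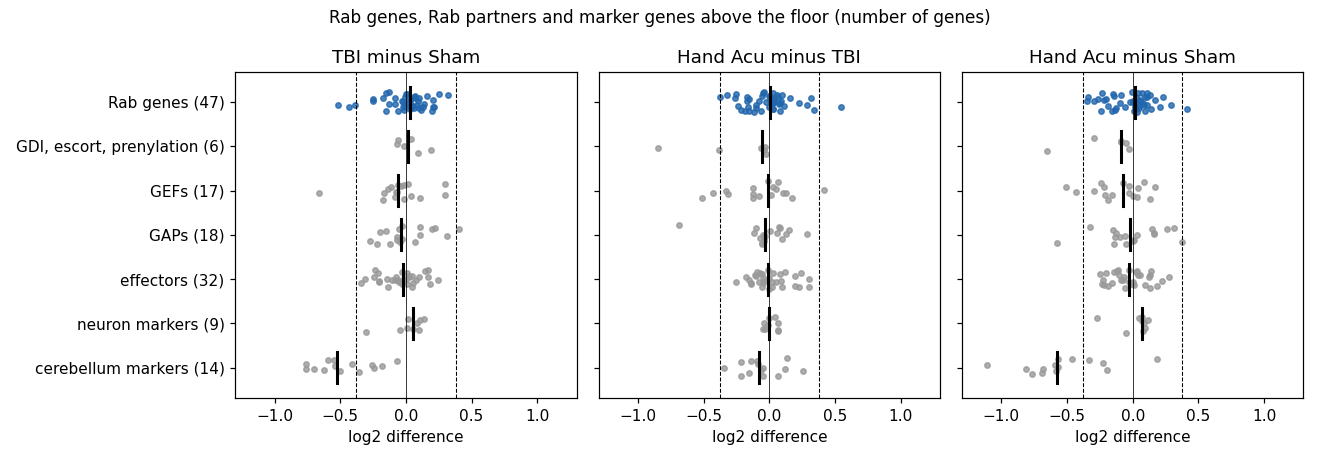
Log2 differences of single genes above the floor (points) and list medians (bars) for Rab genes, 4 lists of Rab partners, neuron markers and cerebellum markers, with dashed lines at 1.3-fold. Rab genes and partners centre near 0 in each comparison, while cerebellum markers lie below 0 in the 2 comparisons with Sham.

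Cerebellum markers differed more between arrays than the Rab family did. All 14 of those above the floor had less signal in TBI than in Sham, with a median of -0.52, and 13 of 14 were lower on the Hand Acu than on the Sham array, with a median of -0.58. Their summed linear signal was 27311 on the Hand Acu array and 28063 on the TBI array, against 37604 on the Sham array, and Gabra6 and Pcp2 were far above the floor on all 3. Neuron markers had medians of 0.06 for TBI minus Sham, -0.0045 for Hand Acu minus TBI and 0.07 for Hand Acu minus Sham. Other lists set the Sham array apart in the opposite direction. All 5 brainstem markers above the floor were higher in TBI than in Sham (median 0.48) and in Hand Acu than in Sham (median 0.34), and their summed signal was 1476 on the Hand Acu array and 1603 on the TBI array, against 1094 on the Sham array. Forebrain markers were split, with medians of 0.30 and 0.35 and 4 of 6 higher in each. Adora2a, Ppp1r1b, Drd1 and Drd2 were higher in both comparisons, whereas Neurod2 and Neurod6 were lower in both. Rab4a and Rab33a were higher on the Sham array than on both others, as the cerebellum markers were. Rab13 was lower there, as the brainstem markers were. Other Rab genes had the same orders. The Sham array was the highest for 12 of the 47 Rab genes (25.5%), beside 34.3% of all genes above the floor. It was the lowest for 19 (40.4%), beside 36.3%.

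Rab9a and Rab3ip had the TBI array apart, and so did some marker lists, in the opposite direction. The TBI array was the lowest for 13 of the 47 Rab genes (27.7%), beside 31.7% of all genes above the floor. The 3 blood cell genes were all higher in TBI than in Sham (median 0.33) and all lower in Hand Acu than in TBI (median -0.26). Their summed signal was 11251 on the Hand Acu array and 14764 on the TBI array, against 11718 on the Sham array. Microglia markers had medians of 0.18, with 6 of 8 higher, and -0.18, with 5 of 8 lower, for the same 2 comparisons. Choroid plexus and ependymal markers had 0.16, with 5 of 6 higher, and -0.26, with 5 of 6 lower. Endothelial markers had medians in the direction of these 2 Rab genes, but the list was divided. The medians were -0.14 (5 of 7 lower, beside 49.0% of all genes) and 0.07 (4 of 7 higher, beside 49.3%). For Hand Acu minus TBI, Emcn differed by 0.51 and Eng by -0.55. The part of tissue makeup in the values of any Rab gene was not tested.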

How the data were processed

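The authors' deposited values are log2 signals from 1 Affymetrix array per group. Per the submitters' processing notes they were made with MAS5, whose version is not given in the sources used here. Raised to the power of 2, they had a 2% trimmed mean of 500.0 on each array, so the log2 scale and the common scaling were read from the values. The files hold no detection calls, so the floor stands in for them. MAS5 subtracts mismatch signal, which makes low values erratic. The number of arrays limits the precision.

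Of 31099 probe sets, 57 were controls. Of the others 20826 had 1 symbol in the platform annotation of 2016, 436 had several and 9780 had none there. All 58 Rab genes were found by identifier in the RefSeq table of GRCr8 and 0 symbols differed. Promoter sequences came from a RefSeq table of the same assembly.

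Differences of log2 signal were taken between arrays as deposited. Genes named singly were those 1.3-fold apart, the 5 highest and 5 lowest Rab genes of each comparison, sets of close paralogs, and up to 4 partners per list past 1.3-fold; other members named were chosen after their values were seen. Members, lists and thresholds were chosen with earlier results of these data known. Alternatives were quantile normalization, median centring, no floor, a higher floor, an offset of 50, other probe sets, other folds, and leaving out Rab3ip and Rab5if. The work used numpy 2.4.6, pandas 2.3.3 and, for plots, matplotlib 3.10.9 under Python 3.11.15, and the calls were tested on simulated data.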

Additional observations from a re-analysis of the deposited data

How the results depend on the processing

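No paired analysis was possible because each group is 1 array. Median differences of the Rab genes moved by less than 0.05 under every alternative except the second brightest probe set, which covers the 20 genes that have one above the floor and gave -0.081 for Hand Acu minus TBI and -0.055 for Hand Acu minus Sham. Counts at 1.3-fold are small, so they shift easily. With no floor, which adds the erratic genes near background, all 58 Rab genes enter. The counts higher and lower were then 1 and 7 for TBI minus Sham, beside 11.7% and 10.5% of all genes without a floor. They were 5 and 3 for Hand Acu minus TBI and 2 and 4 for Hand Acu minus Sham. The second brightest probe set gave 2 and 0, 0 and 1, and 2 and 1 for the 3 comparisons in that order. Where no share of all genes stands beside them, these counts only show how far they shift and are not read as a result about Rab genes. At 1.2-fold they were 1 and 3, 4 and 3, and 2 and 4, and at 1.5-fold 0 throughout. For Hand Acu minus Sham the count higher was 0 with the higher floor, 0 with the offset of 50 and 2 when all probe sets of a gene were averaged. Quantile normalization, median centring and leaving out Rab3ip and Rab5if kept every count within 1.5 times. For single Rab genes, scaling and the offset kept 285 of 288 values within the SD over all genes and took 3 below the threshold. Averaging the probe sets of genes with several did so for 46 of 48, with 1 moved by more and 1 below the threshold. The second brightest probe set, a separate reading, gave 27 of 42 within that SD, 14 moved by more and 1 below the threshold. None that had passed 1.3-fold turned its sign. Of the genes that had passed, however, only Rab3ip has more than 1 probe set, so other probe sets could not turn the rest. Rab9a has 1 probe set, so only quantile normalization, median centring and the offset of 50 could change its values. Under each of these it passed 1.3-fold for TBI minus Sham and for Hand Acu minus TBI. The second brightest probe set does not hold it.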
